A study of Mus musculus with 8 samples.

Results

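The regions described here are stretches of the mouse autosomes at which the histone mark H3K9me3 was called in cells with the demethylase KDM4B and not in cells without it. They were chosen by the peak calls themselves, as the peaks of the H3K9me3 wild-type (WT) list that share no bp with any peak of the H3K9me3 knockout (KO) list. They are called WT-only. Of the 781 autosomal WT peaks, 450 met this rule, or 57.6% (95% exact binomial interval 54.1 to 61.1%), and the other 331 overlapped a KO peak and are called kept. The share of all autosomal WT peaks that lack a KO peak is by construction the same 57.6%, so nothing is read from this count. The 6 peak lists of the series hold 88367 peaks in all.

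The cells were primary mesenchymal stem cells from mouse bone marrow, which can form bone, cartilage and fat. WT cells came from Prx1Cre; Kdm4bw/w mice and KO cells from Prx1Cre; Kdm4bf/f mice, so both genotypes carry the Cre recombinase, whose Prx1 promoter is active in limb mesenchyme. All cells were kept in osteogenic medium for 4 hours before chromatin immunoprecipitation sequencing (ChIP-seq) for KDM4B, H3K9me3 or total histone H3. Each antibody and genotype is represented by 1 library, so no comparison between genotypes could be tested. The sources used here give no age of the mice. Depth is unknown for both H3K9me3 libraries and the lists carry no peak height or score. Intervals cover counting error only, and since neighbouring peaks are not independent they are too narrow.

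Trimethylation of lysine 9 on histone H3 is laid down by enzymes such as SETDB1 and SUV39H1 and is bound by heterochromatin protein 1, which compacts chromatin. In mammals it is best known from satellite repeats near centromeres, from endogenous retroviruses and other transposable elements, and from clusters of zinc finger genes. KDM4B removes methyl groups from this residue. Positions below are in mouse build mm9. Neither sequences nor gene annotation of that build were used here, so regions are given by position, and whether they lie on genes or repeats was not analysed here.

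Most WT-only regions were short. Their median width was 248.5 bp, with quartiles of 207 and 328 bp, a lowest width of 199 bp and a highest of 2390 bp. The smallest width that the WT list contains, 199 bp, was that of 84 of the 450, or 18.7%. Kept WT peaks were wider, with a median of 427 bp, quartiles of 337 and 811.5 bp, and a highest value of 19611 bp. Only 11 of the 331 kept peaks, or 3.32%, had the smallest width. The KO peaks without a WT counterpart, 54817 of 55158 on the autosomes (99.4%), had a median of 255 bp. In width the WT-only regions thus lay near the KO-only peaks and apart from the kept WT peaks. Width comes from the lists the rule used, so this is a description.

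By width class, 315 WT-only regions, or 70.0%, were under 300 bp, 123 were from 300 bp to under 1 kb, and 12 were of 1 kb or more. The 12 widest made up 2.67% of the regions and 12.9% of the 145640 bp that the regions cover. Read the other way, 84.5% (80.4 to 88.0%) of the 373 autosomal WT peaks under 300 bp had no KO peak, against 37.3% (32.0 to 42.7%) of the 330 peaks of middle width and 15.4% (8.21 to 25.3%) of the 78 peaks of 1 kb or more. WT-only regions were therefore 57.6% of the autosomal WT peaks by number and 31.4% by covered length. A wider peak has more bases with which to touch a KO peak, so a lower share among wide peaks is partly built into the rule. How large that part is was not tested.

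**Figure D1:**
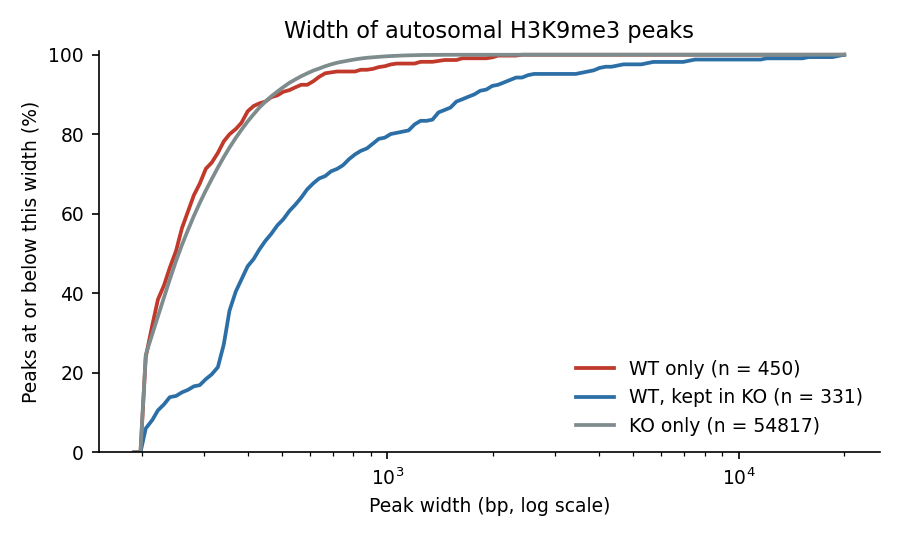
Cumulative share of autosomal H3K9me3 peaks (percent, vertical axis) at or below each width (bp, horizontal log axis), for the 450 WT-only peaks, the 331 kept WT peaks and the 54817 KO-only peaks. The WT-only and KO-only curves run close together, with medians of 248.5 and 255 bp, and the kept peaks lie to the right with a median of 427 bp.

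The regions lay on all 19 autosomes but were concentrated on chromosome 4. That chromosome held 113 of them, or 25.1%, and chromosome 3 held 38. The other autosomes held between 7, on chromosome 18, and 29, on chromosome 1. On chromosome 4, 113 of 141 WT peaks had no KO counterpart, or 80.1% (72.6 to 86.4%), and on chromosome 3 the figure was 38 of 53, or 71.7% (57.7 to 83.2%). The lowest share was on chromosome 9, with 11 of 50 peaks, or 22.0% (11.5 to 36.0%), followed by chromosome 1 with 29 of 89, or 32.6% (23.0 to 43.3%). Without chromosomes 3 and 4, 299 of 587 WT peaks had no KO counterpart, or 50.9% (46.8 to 55.1%), so these chromosomes alone supplied 151 of the 450 regions.

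**Figure D2:**
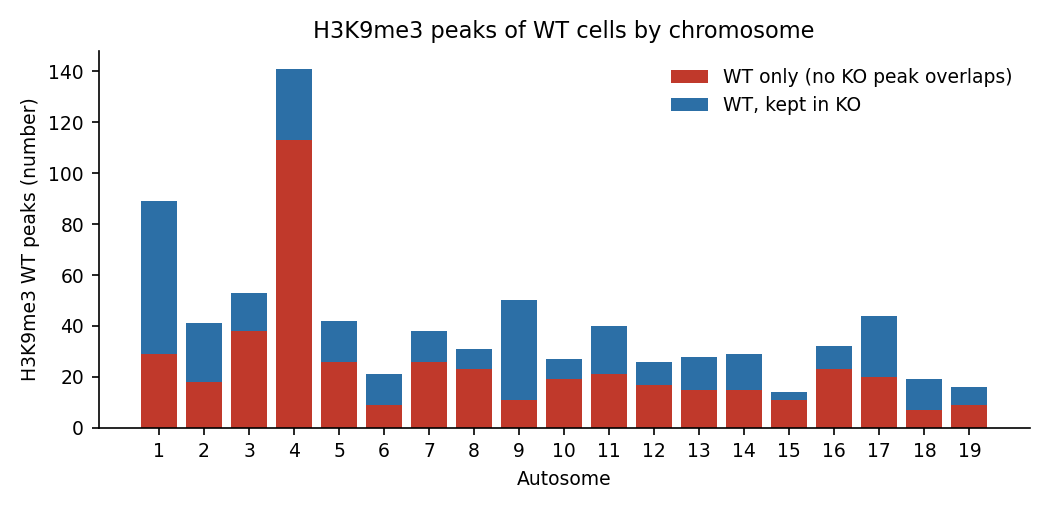
Number of H3K9me3 WT peaks (vertical axis) on each autosome, split into WT-only peaks (lower segment) and kept peaks (upper segment). Chromosome 4 has 113 WT-only peaks, and every other autosome has between 7 and 38.

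In windows of 1 Mb, the regions occupied 232 windows, of which 175 held a single region. The 5 fullest windows held 114 regions, or 25.3%. These were chromosome 4 from 146000001 to 147000000 with 28 regions, chromosome 3 from 25000001 to 26000000 with 26, and chromosome 4 from 152000001 with 24, from 121000001 with 19 and from 145000001 with 17. None of these 5 windows contained a KDM4B peak of WT cells. Over all windows that held a region, 38 of 232, or 16.4%, had no KDM4B peak, against 285 of the 2120 autosomal windows with a peak of any list, or 13.4%.

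To describe this clustering, WT-only regions separated by gaps of at most 10 kb were joined into runs, and a run of at least 4 was called a block. There were 14 blocks, with 114 regions, or 25.3% (21.4 to 29.6%), and 38.5% of the covered length. Chromosome 4 held 8 of the 14 blocks and 55 of their regions. The remaining 336 regions were 265 single ones and 71 in runs of 2 or 3. Regions in blocks had a median width of 340 bp and included 10 of the 12 that reached 1 kb, while those outside blocks had a median of 234 bp and 79.8% of them were under 300 bp. Of the single ones, 209, or 46.4% (41.8 to 51.2%) of all regions, had no other WT peak within 100 kb, and their median width was 230 bp. The WT-only list thus held clustered regions, wider as a set, and a larger number of scattered, narrow ones. Per block, the median width of the regions ranged from 214 to 612 bp, so not every block held wider regions. Clustering was not particular to WT-only regions, and kept peaks were more closely spaced. Another WT peak of either kind lay within 10 kb of 45.3% (40.7 to 50.1%) of WT-only regions and 74.9% (69.9 to 79.5%) of the 331 kept peaks. Median gaps to the nearest other WT peak were 30.6 kb for WT-only regions and 0.439 kb for kept peaks.

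The fullest parts of the list are described next as stretches, that is, runs of at least 15 regions with gaps of at most 150 kb, of which there were 5. A run of peaks without a KO counterpart favours low KO coverage by the way it is chosen, so the covered lengths of both lists are given as descriptions. The first, on chromosome 3, was also the largest block, at chr3:25416358-25456246. Over these 39.9 kb the WT list had 34 peaks that covered 30.3 kb, or 76.0% of the span, with a median gap of 222 bp between neighbours and a longest gap of 0.892 kb. Of the 34 peaks, 26 were WT-only, with widths from 201 to 2390 bp and a median of 612 bp, and they made up 69.2% of the WT-covered length. The KO list had 10 peaks here, from 199 to 762 bp wide, which covered 3.79 kb. All 10 lay on the 8 kept WT peaks. Even these kept peaks were covered only in part, with KO peaks spanning from 12.8 to 57.7% of each and 38.5% of their summed 9.35 kb. The block thus appeared in both lists, as a nearly continuous domain in WT and as short fragments in KO.

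Around the chromosome 3 block, the 100 kb on either side contained 0 H3K9me3 peaks of WT or KO cells and 0 KDM4B peaks of WT cells. The nearest KDM4B peak of WT cells was 1596 kb away, and the block contained no H3 peak of either genotype and no KDM4B peak of KO cells. Its widest member, chr3:25428849-25431238, spanned 2.39 kb and lay 468 bp from the nearest KO peak.

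The first of 4 stretches on chromosome 4, at chr4:121666881-121821972, had 19 WT-only regions spread over 155 kb. The WT list had 21 peaks covering 7.04 kb, and the KO list had 4 peaks covering 0.818 kb. The regions were narrow, from 199 to 717 bp with a median of 273 bp. They formed a block of 4 at chr4:121714917-121730615, which held no KO peak, and one of 9 at chr4:121749046-121786262, which held 4. In the second of these the WT peaks covered 12.1% of the span, so unlike the chromosome 3 block this stretch was a series of separate peaks. The widest region, chr4:121781481-121782197, spanned 717 bp. The nearest KDM4B peak of WT cells to any of the 19 was 703 kb away.

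The second and the third of the chromosome 4 stretches held 5 further blocks. The blocks of the second, at chr4:145661265-145681082 and chr4:145702721-145717272, held 8 and 7 WT-only regions. Over the 56.0 kb from the first to the last of these 15 regions the WT list covered 5.74 kb and the KO list, with 2 peaks, covered 0.416 kb. The blocks of the third, at chr4:146710119-146724940, chr4:146793374-146808498 and chr4:146883616-146911985, held 6, 8 and 9 regions. The whole stretch, chr4:146710119-146973805, which contains these 3 blocks and 4 more regions, had 33 WT peaks covering 17.5 kb and 7 KO peaks covering 2.25 kb.

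The last block of the third stretch, with 9 regions and 5.74 kb of WT coverage, had no KO peak within 72.5 kb. It contained chr4:146892756-146894752, with 2.00 kb the second widest of all WT-only regions, and chr4:146900093-146901487, with 1.40 kb. These lay 81.6 and 88.9 kb from the nearest KO peak. They differed in this from the wide regions of chromosome 3, all of which had a KO peak within 5 kb. The block at chr4:146793374-146808498 contained another wide region, chr4:146803503-146804739, with 1.24 kb, and KO peaks covered 0.597 kb of that block against 6.41 kb in WT.

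The fourth chromosome 4 stretch looked different. Between 152063578 and 153089123, 26 WT-only regions were scattered over 1026 kb, and 4 of them formed a block. Their median width was 234 bp, their highest 398 bp, and 21 of the 26 were under 300 bp. The KO list had 51 peaks here, with a median width of 235 bp, against 28 WT peaks, and covered 13.5 kb against 6.82 kb. Of the 5 stretches, this was the 1 in which the KO list covered more sequence than the WT list. Peaks of both lists were thus interspersed here, with 2 of the 28 WT peaks kept and a median of 6.52 kb between a WT-only region and the nearest KO peak. KDM4B had no peak in this stretch either, and the nearest lay 211 kb from a WT-only region.

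**Figure D3:**
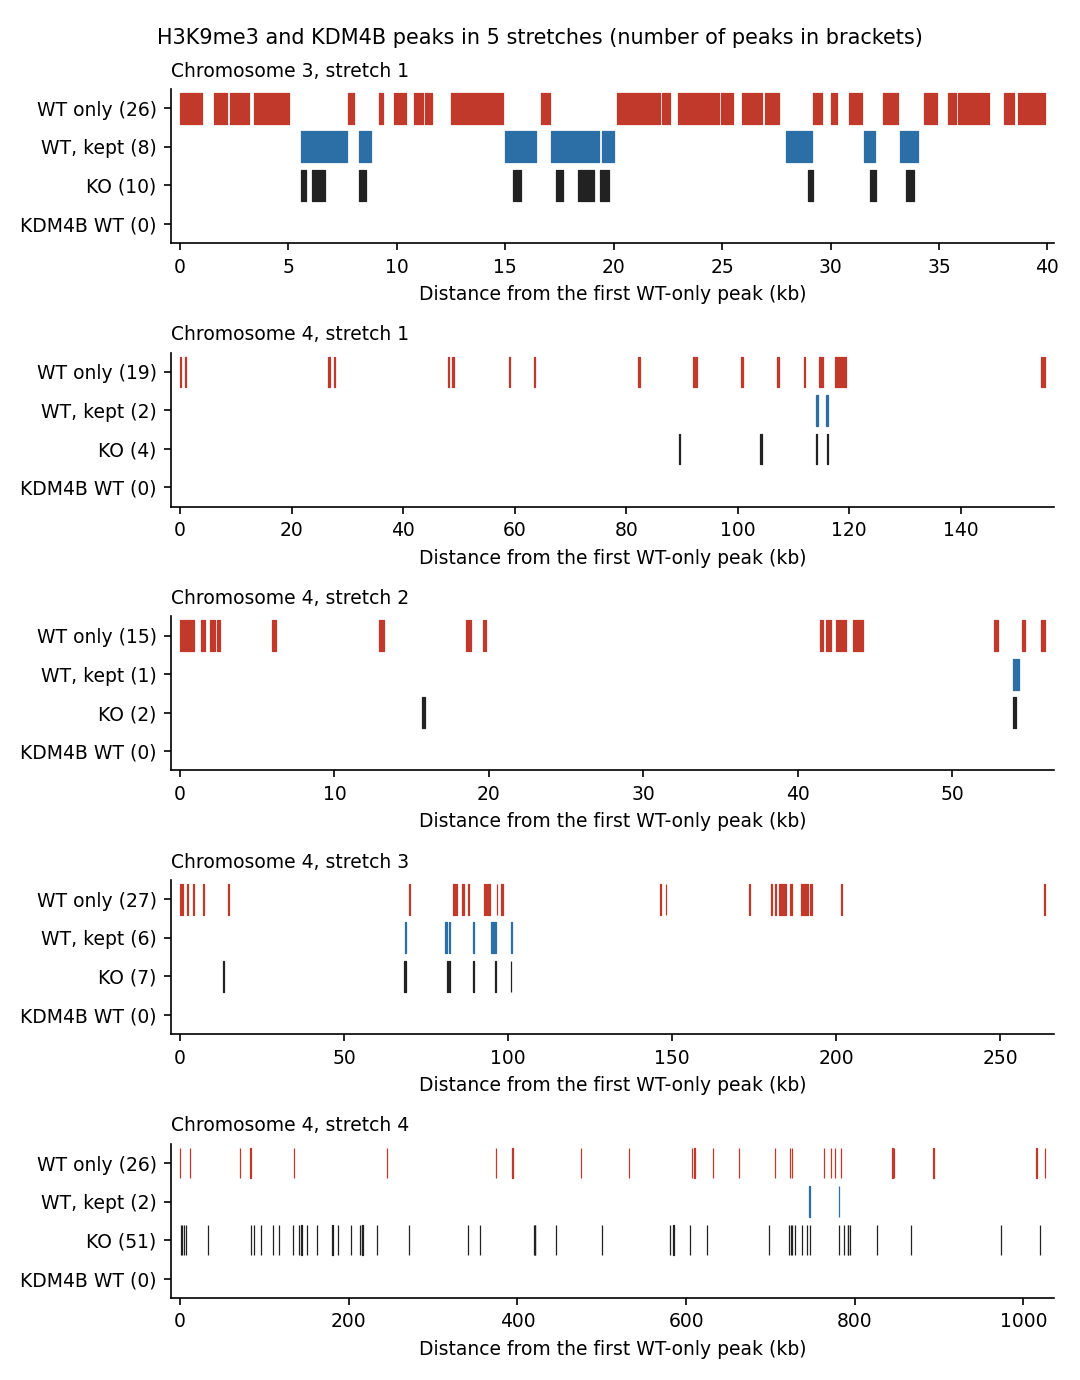
Positions of WT-only, kept WT and KO H3K9me3 peaks and KDM4B WT peaks (rows, with the number of peaks) over the 5 stretches, as distance in kb from the first WT-only peak. Bars are drawn to scale with a thin outline. The chromosome 3 block is nearly filled by 26 WT-only and 8 kept peaks, with 10 short KO peaks on the kept ones, the first 3 chromosome 4 stretches have 4, 2 and 7 KO peaks, and the fourth has 51.

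Outside these stretches, blocks lay on chromosomes 16, 14, 1 and 7. On chromosome 16, at chr16:3241980-3265779, all 10 WT peaks were WT-only and covered 4.69 kb, and the KO list had none, the nearest KO peak being 0.793 kb beyond the edge. The widest of the 10, chr16:3247113-3248138, spanned 1026 bp. On chromosome 14, at chr14:70041669-70061421, 9 of 13 WT peaks were WT-only, and the KO list had 8 peaks covering 2.66 kb against 4.28 kb in WT. Of those 8 KO peaks, 5 lay between the WT peaks and 3 on them.

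The 2 blocks of chromosome 1 differed from each other. At chr1:90178462-90193597, 5 of 15 WT peaks were WT-only and 10 were kept, and the WT list covered 8.82 kb against 7.03 kb in the KO list. The 5 regions there lay among peaks found in both genotypes. At chr1:87493510-87521060, 4 narrow regions of 205 to 296 bp covered 0.928 kb with no KO peak among them, and 1 of the 4 overlapped an H3 peak of KO cells. The block of chromosome 7, at chr7:46522778-46536546, had 5 WT-only and 3 kept peaks, with coverage of 2.71 kb in WT against 1.48 kb in KO.

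Across the 14 blocks, WT peaks covered more sequence than KO peaks in every one, as the way blocks were chosen favours. In 4 of them the KO list had no peak at all, and in the other 10 the ratio of WT to KO covered length ranged from 1.26 to 14.2. The KO list had 40 peaks in the blocks, of which 31 lay on kept WT peaks. Both libraries are single, and a ratio of covered lengths depends on the calling threshold of each list, which is unknown.

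**Figure D4:**
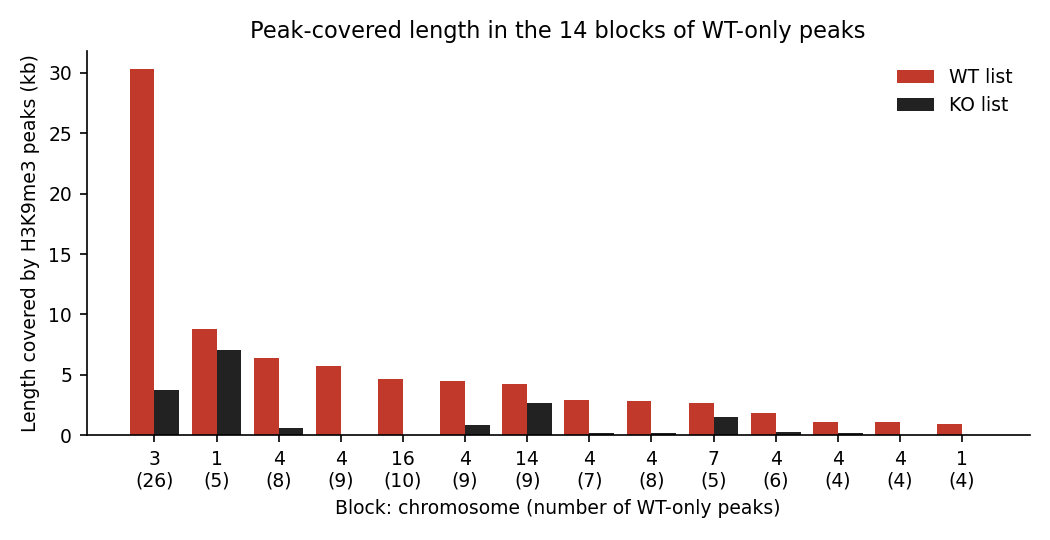
Length covered by H3K9me3 peaks (kb, bars from 0) in the WT and KO lists for each of the 14 blocks, labelled by chromosome with the number of WT-only peaks in brackets and ordered by the WT length. The chromosome 3 block stands at 30.3 kb in WT against 3.79 kb for KO, and the second bar pair, on chromosome 1, at 8.82 and 7.03 kb.

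Among the 10 widest WT-only regions, 6 lay in the chromosome 3 block, 3 in the third chromosome 4 stretch and 1 on chromosome 17. The chromosome 3 regions were 2.39, 1.99, 1.93, 1.59, 1.43 and 1.23 kb wide. The chromosome 17 region, chr17:13405899-13407521, spanned 1.62 kb and was followed after 65 bp by a second WT-only region of 929 bp, chr17:13407587-13408515. These lay 671 and 62 bp from a KO peak. None of the 10 had a KDM4B peak of WT cells within 50 kb. Such a peak lay within 50 kb of 31.1% of all WT-only regions, and 33.4% of the autosomal span lies within that distance. Since 6 of the 10 lay in the same block and 3 in the same stretch, they are not independent places.

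Distance to the nearest KO peak varied from 4 bp to 2090 kb, with a median of 10.6 kb and quartiles of 1.67 and 35.1 kb. A KO peak lay within 1 kb of 77 regions, or 17.1%, and within 10 kb of 222, or 49.3%, and 55 regions had none within 100 kb. The KO list has 55158 autosomal peaks over a span of 2404 Mb. The share of that span within these distances of a KO peak was not computed. Whether the regions lie nearer to KO peaks than other positions do thus cannot be read from these shares. Regions in blocks lay closer to KO peaks as a set, at a median of 2.70 kb, than those outside, at 14.5 kb. Blocks differed in this. The 26 regions of the chromosome 3 block lay at a median of 1.45 kb, while the block at chr4:146883616-146911985 had no KO peak within 72.5 kb. The closest at the edge of the rule were chr6:29697377-29697575, chr12:114012298-114012538 and chr15:76007923-76008181, with 4, 8 and 22 bp to a KO peak. Just outside the rule were the kept peaks chr4:152809812-152810020, chr7:4982351-4982565 and chr17:13410001-13410520, which shared 14, 18 and 24 bp with one. The remotest was chr5:61950715-61950941, a single region of 227 bp with 2090 kb to the nearest KO peak and 1283 kb to the nearest KDM4B peak.

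Part of the list lay close to kept peaks. A kept WT peak lay within 1 kb of 50 regions, or 11.1% (8.36 to 14.4%), and within 10 kb of 114, or 25.3%. When peaks of each list were first joined over gaps of up to 1 kb, 345 of 528 joined WT regions, or 65.3%, had no KO counterpart, and the whole chromosome 3 block, whose gaps are all under 1 kb, became 1 kept region.

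KDM4B binding and total H3 were not used to choose the regions. KDM4B peaks of WT cells overlapped 7 of the 450, or 1.56% (0.628 to 3.18%), and 6 of the 331 kept peaks, or 1.81% (0.668 to 3.90%). These intervals overlap. KDM4B peaks cover 0.992% of the autosomal span, but a peak touches one more often than a single base does. The share expected for peaks of these widths was not computed, so neither share can be read as above or below it. Of the 54817 KO-only H3K9me3 peaks, by contrast, 15.8% (15.5 to 16.2%) overlapped KDM4B. The difference between WT-only and KO-only peaks was also present within width classes, at 1.90% (0.702 to 4.10%) of 315 against 11.9% (11.6 to 12.3%) of 35423 peaks under 300 bp, and at 0.813% (0.0206 to 4.45%) of 123 against 22.8% (22.2 to 23.4%) of 19184 peaks of 300 bp to under 1 kb. No test was made, because the peaks of 1 library are not replicates.

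Distances to KDM4B peaks of WT cells were compared next. Within 1 kb the shares were 4.67% (2.91 to 7.05%) of WT-only regions and 3.93% (2.11 to 6.62%) of kept peaks. A KDM4B peak lay within 50 kb of 31.1% (26.9 to 35.6%) of WT-only regions, 40.5% (35.2 to 46.0%) of kept peaks and 71.9% (71.5 to 72.2%) of KO-only peaks, while 33.4% of the autosomal span lies within that distance. Median distances were 210, 84.6 and 17.3 kb. The difference between WT-only and kept peaks came with chromosomes 3 and 4: without these, the shares were 43.5% (37.8 to 49.3%) of 299 and 44.8% (39.0 to 50.7%) of 288, and the medians were 75.1 and 73.0 kb. Regions in blocks were the most remote as a set, with a median of 509 kb. Of these 114 regions, 26 lay on chromosome 3 and 55 on chromosome 4. No KDM4B peak lay inside any of the 14 blocks, of which 8 were on chromosome 4. How many KDM4B peaks other spans of this length hold was not computed, nor was the count for runs of kept peaks. Nothing is therefore read from this absence. A KDM4B peak lay within 50 kb of 5 of the 114 regions, all in the block at chr1:90178462-90193597, 4.14 kb from its edge. The blocks on chromosome 14 and at chr1:87493510-87521060 lay 70.7 and 78.9 kb from a KDM4B peak, and the others 237 to 1596 kb. Regions outside blocks lay at a median of 96.0 kb.

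**Figure D5:**
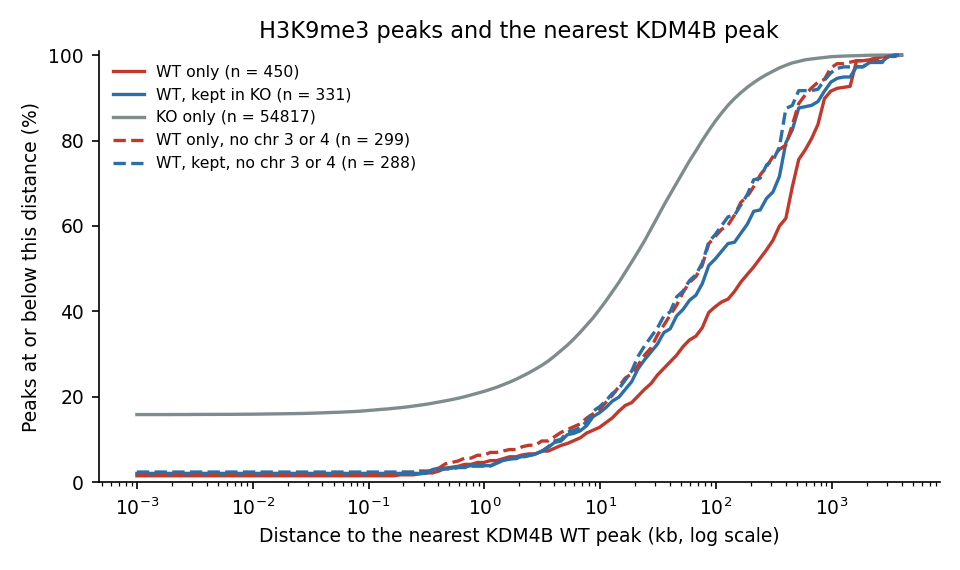
Cumulative share of H3K9me3 peaks (percent, vertical axis) at or below each distance to the nearest KDM4B WT peak (kb, horizontal log axis). Overlapping peaks have distance 0 and are counted from the left edge on. The solid curves have medians of 210 kb (WT-only), 84.6 kb (kept) and 17.3 kb (KO-only), and the dashed curves without chromosomes 3 and 4 have medians of 75.1 kb (WT-only) and 73.0 kb (kept).

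The 7 regions that overlapped KDM4B were small and lay outside blocks. Of these, 2 were neighbours on chromosome 15. The region chr15:76006507-76006721, 215 bp wide, lay wholly within a KDM4B peak of 858 bp, chr15:76005896-76006753, and had a KO H3K9me3 peak 255 bp away. The region chr15:76007923-76008181, 259 bp wide, lay wholly within one of 981 bp, chr15:76007892-76008872, with a KO peak 22 bp away. Within 10 kb of this pair there were 18 KDM4B peaks, 15 KO and 4 WT H3K9me3 peaks, the pair included.

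The widest of the 7 was chr4:141027437-141027853, with 417 bp, of which 181 bp were shared with a KDM4B peak. On chromosome 19, chr19:61300247-61300502 shared 52 bp with the edge of a KDM4B domain of 4229 bp, chr19:61300451-61304679, and 19 bp with the end of a second peak. On chromosome 16, chr16:32154281-32154479 touched 2 KDM4B peaks, sharing 83 and 41 bp, and on chromosome 10, chr10:22539409-22539607 shared 98 bp with one. These 4 regions had a KO H3K9me3 peak within 120 to 1597 bp. The exception was chr1:173816987-173817185, 199 bp wide, which lay wholly within a KDM4B peak of 477 bp and had 120625 bp to the nearest KO peak.

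Total H3 and the KDM4B antibody in KO cells, which give lists that do not rest on H3K9me3, rarely coincided with WT-only regions. These lists are short, which limits how many regions they can overlap. On the autosomes they hold 34 peaks (H3, WT), 27 (H3, KO) and 34 (KDM4B, KO). Rare overlap was not particular to WT-only regions. Of the 54817 KO-only peaks, H3 peaks of either genotype overlapped 1, or 0.00182%, and KDM4B peaks of KO cells overlapped 0. H3 peaks of either genotype overlapped 1 of the 450, or 0.222% (0.00563 to 1.23%), against 16 of the 331 kept peaks, or 4.83% (2.79 to 7.73%). The 1 region was chr1:87502029-87502233, in the chromosome 1 block without KO peaks, which contained the whole of an H3 peak of KO cells of 107 bp, chr1:87502094-87502200. KDM4B peaks of KO cells overlapped 0 of the 450, where a count of 0 allows a share of up to 0.667% (3 counts of the total), and 26 of the kept peaks, or 7.85% (5.20 to 11.3%). Of the 34 autosomal KDM4B peaks of KO cells, 33 overlapped a kept peak.

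Width differed between these sets, so the same counts were taken within classes. Under 300 bp, KDM4B peaks of KO cells overlapped 0 of 315 WT-only and 0 of 58 kept peaks. From 300 bp to under 1 kb they overlapped 0 of 123, which allows up to 2.44%, against 15 of 207, or 7.25% (4.11 to 11.7%). At 1 kb or more they overlapped 0 of 12, which allows up to 25%, against 11 of 66, or 16.7% (8.62 to 27.9%), which the 12 regions cannot tell apart. H3 peaks of either genotype overlapped 1 WT-only region, or 0.317% (0.00804 to 1.76%), against 1 kept peak, or 1.72% (0.0436 to 9.24%), under 300 bp. From 300 bp to under 1 kb they overlapped 0 regions against 6 kept peaks, or 2.90% (1.07 to 6.20%), and at 1 kb or more 0 against 9, or 13.6% (6.43 to 24.3%). In each of these 3 classes the ranges allowed for WT-only and kept peaks overlap, so the H3 difference over all widths could not be separated within a class. The 26 kept peaks with a KDM4B peak of KO cells lay in 14 runs on 11 chromosomes, so fewer independent places stand behind them than peaks. Within 10 kb of an H3 peak there were 5 WT-only regions, or 1.11% (0.362 to 2.57%), and 50 kept peaks, or 15.1% (11.4 to 19.4%). Among the KO-only peaks there were 9, or 0.0164% (0.00751 to 0.0312%). These counts were not split by width, and peaks that lie close together can share the same H3 peak. Blocks held 3 of the 5 WT-only regions. One of the 5, chr5:15185664-15185881, lay 621 bp from an H3 peak of WT and 457 bp from one of KO cells.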

How the data were processed

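ChIP-seq peak lists of KDM4B, H3K9me3 and H3 in WT and KO cells, 1 library each, were used. The series' 2 input samples were not analysed here. Bowtie was the aligner, SAMtools was used, and MACS (KDM4B) or MACS2 (H3 and H3K9me3) called the peaks on mm9 (hg19 is also listed), per the submitters' processing notes. Of the 6 files the authors deposited, 5 hold chromosome, start and end only. The sources used here give neither their thresholds, controls and depth nor the use of the yeast chromatin that the series' design text names as spike-in for H3K9me3. The H3 WT file, from MACS2 2.1.4 at a q-value threshold of 0.05 with 40420466 filtered tags per the file headers, also holds the authors' pileup signal, fold enrichment ratio and −log10 p-value and q-value; only its positions were used.

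Peaks shared when at least 1 bp overlapped. Starts were read as 0-based and are printed 1-based, and width is end minus start. Distances are bases between nearest edges. Intervals of shares are 95% exact binomial ones (Clopper-Pearson), covering counting error only, and the limit at a count of 0 is 3 counts of the total. No genotype test is possible with 1 library per group. The gene table given is of another build (GRCm38.p6) and was not used, so the planned GC content and gene overlap were not computed. Regions named were the 10 widest, blocks of 6 or more members, those overlapping KDM4B or H3, and the 3 nearest each side of the rule. The smaller blocks, the stretches, the remotest region, the second region on chromosome 17 and the region near H3 on chromosome 5 were named after their values were seen. The regions and this rule were chosen with earlier results of these data known.

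Counts were made in Python 3.11.15 with numpy 2.4.6, scipy 1.17.1 and pandas 2.3.3, tested on simulated lists, and compared with those of bedtools 2.31.1, which were equal for each of the 5 other lists.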

Additional observations from a re-analysis of the deposited data

How the results depend on the processing

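The rule depends most on what counts as shared and on width. Counting peaks within 1 kb as shared left 373 WT-only regions, or 47.8% of autosomal WT peaks, and within 10 kb 228, or 29.2%. With peaks of at least 300 bp only, 135 of 408 remained WT-only, or 33.1%. Joining peaks within 1 kb gave 65.3% of joined regions, and leaving out surroundings of 10 kb around H3 peaks and KO-cell KDM4B peaks gave 62.0%. Without chromosomes 3 and 4, a setting chosen after seeing the data, there were 299, or 50.9%. Requiring that 50% of the shorter peak be shared (470 regions, 60.2%) or adding the X and Y (533, 56.5%) kept the share within the interval of the main value. Blocks held 18.7% of the regions with gaps of up to 5 kb, in 11 blocks, and 26.7% with gaps of up to 20 kb, in 14. KDM4B lay at or within 1 kb of 4.67% of the regions. The overlap with H3, 1 region, was 0% among regions of at least 300 bp and 0% outside blocks, since that region is narrow and in a block. The cause of the other shifts was not tested. No paired analysis was possible because each group has 1 library. GC content and gene overlap could not be computed without a genome of the build. Depth is unknown for the H3K9me3 lists, so the absence of a KO peak means only that none was called.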

Other observations

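On the sex chromosomes, which the rule leaves out, 58 of 112 H3K9me3 WT peaks on the X shared no bp with a KO peak, or 51.8% (42.1 to 61.3%), and so did 25 of 50 on the Y (35.5 to 64.5%). They had median widths of 316 bp on the X and 332 bp on the Y, against 248.5 bp on the autosomes. By the same definition of a block, 35 of the 58 on the X lay in 4 blocks and 11 of the 25 on the Y in 2. The largest, at chrX:121264118-121314203, held 16 WT-only peaks among 27 WT peaks, with 13.4 kb covered in WT and 6.36 kb in 12 KO peaks. The largest on the Y, at chrY:1264118-1272385, held 7 WT peaks covering 2.25 kb and no KO peak.

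A scattered group lay on chromosome 2 between 171000001 and 172000000. All 7 WT peaks in this window were WT-only, from 199 to 337 bp wide, and all 7 were farther than 17 kb from the nearest of the 5 KO peaks. KDM4B had no peak in the window.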
